A study of Mus musculus with 4 samples.

Results

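The collagen genes were described in single-cell RNA-seq of the mouse mammary gland before and at birth. They were taken by symbol, as every gene named Col, a type number, the letter a and a chain number, except Col17a1. The rule gave 43 genes, out of 31053 listed at E15.5 and 32285 at each other stage. By structure, 11 are fibrillar collagens, 8 belong to basement membranes and 9 are FACITs, which decorate the surface of fibrils. The other 15 form beaded filaments, anchoring fibrils, networks or transmembrane proteins. The series holds 1 library for each of embryonic days E13.5, E14.5 and E15.5 and 1 from birth (P0), all from wild-type C57B6 females (the B6/N substrain by the study methods). Each library pooled the tissue of several embryos, and all cells had been sorted as EpCAM+ or EpCAM- after CD45+, CD31+ and Ter119+ cells were removed. The P0 tissue was digested with more collagenase and less hyaluronidase than the embryonic tissue, and its red cells were lysed. No sample carried a mutation or a treatment, so the comparisons are between stages and between tissue compartments.

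Collagens are secreted proteins of alpha chains wound into a triple helix. Types I, III and V build the fibrils of connective tissue, type IV forms the sheet of the basement membrane between epithelium and mesenchyme, and type VI links fibrils to cells. Mesenchymal cells and fibroblasts are the main source of fibrillar collagen, and epithelia secrete part of their own basement membrane. The mammary bud grows into dense mesenchyme before its ducts invade the fat pad precursor.

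Cells with at least 5000 UMIs, which count single RNA molecules, and at most 6% mitochondrial UMIs were kept. A cell was called mesenchymal where its UMIs of Pdgfra, Lum, Dcn, Twist2 and Cdh11 exceeded those of Epcam, Krt8, Krt18, Krt5 and Krt14, and epithelial in the reverse case. This gave 131, 31, 277 and 260 mesenchymal cells and 102, 45, 538 and 238 epithelial cells in order of stage. The rule does not separate mammary epithelium from skin epithelium. The study removed contaminating skin cells and counted fewer mammary epithelial cells than these at every stage. As a share, the shortfall was largest at E13.5, where the study's count was a small part of the 102 epithelial cells here. Epithelial comparisons with E13.5 can thus set different mixes of cells against each other. The epithelial class can thus hold skin cells in a share that differs by stage, and their part in the epithelial levels was not tested. Between 0 and 5 kept cells per stage were tied and left out. With 31 mesenchymal and 45 epithelial cells, E14.5 is the thinnest stage. Median depth per class ran from 8749 UMIs in the P0 mesenchyme to 26725 in the E14.5 epithelium. No kept barcode was shared between libraries. Marker genes that the rule did not use matched the classes, since 10 further mesenchymal markers summed to between 2179.6 and 11531 CPM (UMIs scaled to a common total, defined in the next paragraph) in mesenchyme and between 155 and 192 CPM in epithelium. Tcf21, one of these 10, was at 0 throughout. The 10 further epithelial markers summed to between 1993 and 4365 CPM in epithelium and to at most 55.6 CPM in mesenchyme. Blood markers summed to at most 2.60 CPM in any group. Hemoglobin genes, all 4 detected, reached 1917 CPM in mesenchyme and 5928 CPM in epithelium at P0 and were below 1 CPM in every embryonic group, and their part in the differences at P0 was not tested.

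A level here is the sum of a gene's UMIs over all cells of a class, expressed as CPM of all UMIs of that class. The brackets give exact 95% intervals that cover counting error only. With 1 library per stage there is no replicate, no p-value was computed, and effects of stage and of library cannot be told apart. A gene was compared where both groups together held at least 20 UMIs, and it is called higher where the ratio of the 2 levels was at least 2. Against a group at 0, the ratio was computed with 3 UMIs in that group and is given as a lower bound. The tags come from the 3′ end of each transcript and are not scaled by length, so levels of different genes are compared as UMI counts. No doublet caller was run, and mixed cells were instead left out in an alternative that kept cells with at least 90% of their marker UMIs on one side.

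Several collagen genes lie beside each other in the genome (mm10 annotation of the deposited tables' gene identifiers). Col4a5 (chrX:141475385-141689234, plus strand) and Col4a6 (chrX:141165403-141474076, minus strand) lie head to head, 1308 bases apart. Col4a1 and Col4a2 on chromosome 8 are also head to head and overlap by 22 bases, at the ends opposite to the 3′ tags. Col3a1 (chr1:45311538-45349706, plus strand) and Col5a2 are tail to tail on chromosome 1, 24614 bases apart, and Col9a1 (chr1:24177610-24252684, plus strand) and Col19a1 are tail to tail, 9205 bases apart. The stretches upstream of 4 transcription starts are shown because these genes carry the contrasts described later: Col3a1 had the highest level of any collagen, Col4a5 and Col4a6 were higher in epithelium at every stage, and Col9a1 changed sides between E15.5 and P0. They were read from RefSeq promoter windows (build GRCm38.p6), 5′ to 3′, with bases that lie in an annotated exon removed, and capitals mark a motif match. They lie at chr1:45311288-45311537, plus strand, for Col3a1 (capitals mark TATAAA), chrX:141475169-141475384, plus strand, for Col4a5 (CCAAT), chrX:141474077-141474326, minus strand, for Col4a6 (CCGCCC, the complement of GGGCGG), and chr1:24177360-24177609, plus strand, for the first of 2 annotated starts of Col9a1 (no match).
Col3a1: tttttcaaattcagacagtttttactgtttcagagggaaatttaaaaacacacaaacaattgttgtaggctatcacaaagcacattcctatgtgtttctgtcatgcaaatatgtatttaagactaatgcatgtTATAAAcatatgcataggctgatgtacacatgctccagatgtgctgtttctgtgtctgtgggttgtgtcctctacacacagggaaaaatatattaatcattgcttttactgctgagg
Col4a5: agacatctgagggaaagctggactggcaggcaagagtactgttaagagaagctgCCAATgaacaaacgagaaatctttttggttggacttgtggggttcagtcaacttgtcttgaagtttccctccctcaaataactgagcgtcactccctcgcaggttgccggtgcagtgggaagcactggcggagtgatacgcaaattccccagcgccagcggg
Col4a6: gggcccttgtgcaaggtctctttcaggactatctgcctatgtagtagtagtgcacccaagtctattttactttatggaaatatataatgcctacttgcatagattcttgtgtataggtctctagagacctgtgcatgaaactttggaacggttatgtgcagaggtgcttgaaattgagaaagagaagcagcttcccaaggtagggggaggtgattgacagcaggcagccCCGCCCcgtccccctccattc
Col9a1: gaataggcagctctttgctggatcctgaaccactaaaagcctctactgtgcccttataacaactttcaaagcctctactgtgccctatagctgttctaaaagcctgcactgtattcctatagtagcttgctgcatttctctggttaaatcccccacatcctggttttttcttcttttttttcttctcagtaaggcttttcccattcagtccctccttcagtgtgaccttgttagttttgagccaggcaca
The 3′ tags cannot tell the 2 starts of Col9a1 apart. RefSeq windows matched 34 of the 43 genes, with 37 starts. The letters TATAAA or their complement occurred within 250 bases upstream in 4 of the 37 collagen windows and in 12.4% of all 32851 windows, CCAAT or its complement in 12 and in 33.8%, and GGGCGG or its complement in 22 (59.5%) and in 32.7%. A match is a run of letters and not a shown binding site.

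In the mesenchyme, collagens took 0.714% (0.703 to 0.725) of all UMIs at E13.5, 1.78% (1.76 to 1.81) at E14.5, 1.96% (1.95 to 1.97) at E15.5 and 8.81% (8.77 to 8.84) at P0. The P0 share was 12.3-fold (12.1 to 12.5) that of E13.5 and 4.50-fold (4.47 to 4.53) that of E15.5. In the epithelium, the shares were 0.0579% (0.0547 to 0.0613), 0.0664% (0.0620 to 0.0710), 0.0824% (0.0809 to 0.0839) and 0.194% (0.189 to 0.199). The mesenchymal share was 12.3-fold (11.6 to 13.1) the epithelial one at E13.5, 26.9-fold (25.1 to 28.8) at E14.5, 23.8-fold (23.3 to 24.2) at E15.5 and 45.4-fold (44.2 to 46.7) at P0. Without mixed cells the ratio at P0 was 64.7, and the epithelial shares were 0.0552%, 0.0665%, 0.0637% and 0.138% in order of stage. Fibrillar genes held 78.2%, 85.9%, 82.5% and 92.5% of the mesenchymal collagen UMIs at the 4 stages in order, and types I and III alone held 69.0%, 79.7%, 77.8% and 87.6%. In the epithelium, fibrillar genes held 26.8%, 24.3%, 37.4% and 51.0% of the collagen UMIs at the same stages, basement membrane genes 55.3%, 56.8%, 34.3% and 23.1% and FACITs 10.5%, 13.3%, 17.5% and 20.8%. These epithelial class shares include the mixed cells, which held much of the fibrillar signal at E15.5 and P0 as described below. They are not read as a change between stages.

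**Figure D1:**
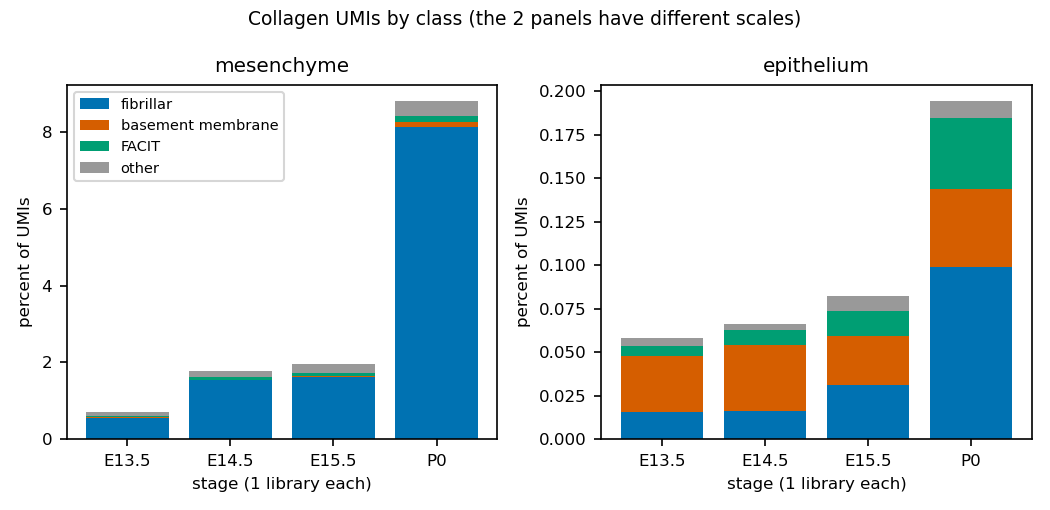
Stacked bars give the percent of all UMIs that came from each collagen class at each stage, for mesenchyme (left) and epithelium (right, on a smaller scale). The mesenchymal bars reach 0.714% at E13.5 and 8.81% at P0 and fibrillar genes made up 78.2% and 92.5% of them, while the epithelial bars reach 0.0579% and 0.194%.

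Cell by cell, the median share of collagen UMIs in mesenchymal cells was 0.534%, 1.59%, 1.52% and 7.83% in order of stage, with lowest cells of 0.0798%, 0.445%, 0.490% and 0.0196% and highest cells of 2.54%, 4.48%, 8.42% and 21.6%. In epithelial cells the medians were 0.0466%, 0.0625%, 0.0602% and 0.0951%, the lowest cells 0%, 0.0180%, 0% and 0% and the highest 0.695%, 0.150%, 2.25% and 4.17%. The epithelial median lay below the lowest mesenchymal cell at each embryonic stage and above it at P0, and at E14.5 the highest epithelial cell was below the lowest mesenchymal one. Few cells carried much of the epithelial fibrillar signal. The 5 highest cells held 73.7% of the epithelial Col1a1 UMIs at E15.5 and 67.6% at P0, against 5.47% and 8.82% for Col4a5. Leaving out 16 mixed epithelial cells at E15.5 took Col1a1 from 96.0 to 27.4 CPM (24.7 to 30.3). Leaving out 5 at P0 took it from 349.6 to 161 CPM (146 to 178). The signal stayed uneven without mixed cells. Of the P0 epithelial clusters described below, cluster 0 was then still at 316 CPM of Col1a1, against 67.7 to 88.2 CPM in the others.

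**Figure D2:**
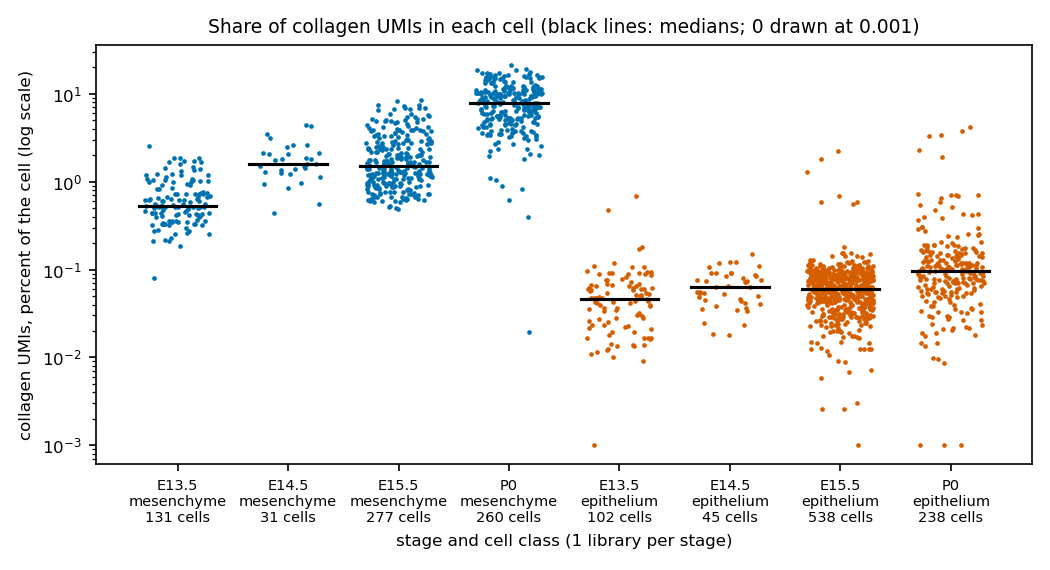
Each point is 1 cell, placed by the percent of its UMIs that came from collagens on a log axis (0 drawn at 0.001), and black lines are medians. The medians run from 0.534% to 7.83% from E13.5 to P0 in mesenchyme, and a few epithelial cells at E15.5 and P0 stand above 1%.

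Part of an epithelial level can be RNA of other cells, so each gene was read against the further mesenchymal markers that the rule did not use. In the epithelium these check markers stood at a median of 5.69%, 3.92%, 1.94% and 1.48% of their mesenchymal level, with a highest value of 19.5% (Postn), 20.1%, 18.7% and 3.50% (Mfap2 at the last 3 stages). The markers differed widely, at E15.5 from 0.804% (Twist1) to 18.7% (Mfap2). Whether epithelial cells express the highest ones themselves was not tested, so the highest value is a cautious limit that can exceed the RNA of other cells. At or below that highest value were 20 of 30 collagens compared at E13.5, 15 of 24 at E14.5, 21 of 36 at E15.5 and 10 of 25 at P0. For these genes this limit does not separate RNA of other cells from expression. Col1a1, Col1a2 and Col3a1 were among them at every stage, for example at 1.30%, 1.05% and 1.09% of the mesenchymal level at P0. Col5a1 was also among them at E15.5, where its UMIs over those of Col5a2 were 2.49 (2.11 to 2.96) in the epithelium and 0.709 (0.672 to 0.748) in the mesenchyme. Its epithelial level there was 33.8 CPM in all cells and 31.0 CPM (28.2 to 34.0) without mixed cells, and the source of this RNA was not tested.

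Most collagens with enough UMIs were higher in the mesenchyme. At E13.5, 21 of 30 were at least 2-fold higher in mesenchyme (21.3% of all 10633 genes compared) and 3 in epithelium (10.0% of all genes). The E14.5 counts were 18 of 24 higher in mesenchyme (17.5% of all genes) and 3 in epithelium (14.7%). At E15.5 they were 24 of 36 (22.6%) and 4 (17.1%), and at P0 17 of 25 (18.7%) and 6 (25.0%). The other 13, 19, 7 and 18 members, respectively, had under 20 UMIs. The median log2 ratio of mesenchyme over epithelium was 3.88, 3.71, 3.54 and 2.77 for these collagens and 0.17, -0.02, 0.10 and -0.29 for all genes compared. By class, fibrillar genes were higher in mesenchyme in 8 of 9, 8 of 8, 9 of 11 and 7 of 8 cases, while basement membrane genes were higher there in 0 of 5, 0 of 5, 1 of 7 and 3 of 6. Higher in epithelium at all 4 stages were Col4a5 and Col4a6, the chains that share a type IV network. Col18a1 was higher in epithelium at the 3 embryonic stages, Col2a1 at E15.5, and Col9a1, Col9a2, Col9a3 and Col7a1 at P0.

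**Figure D3:**
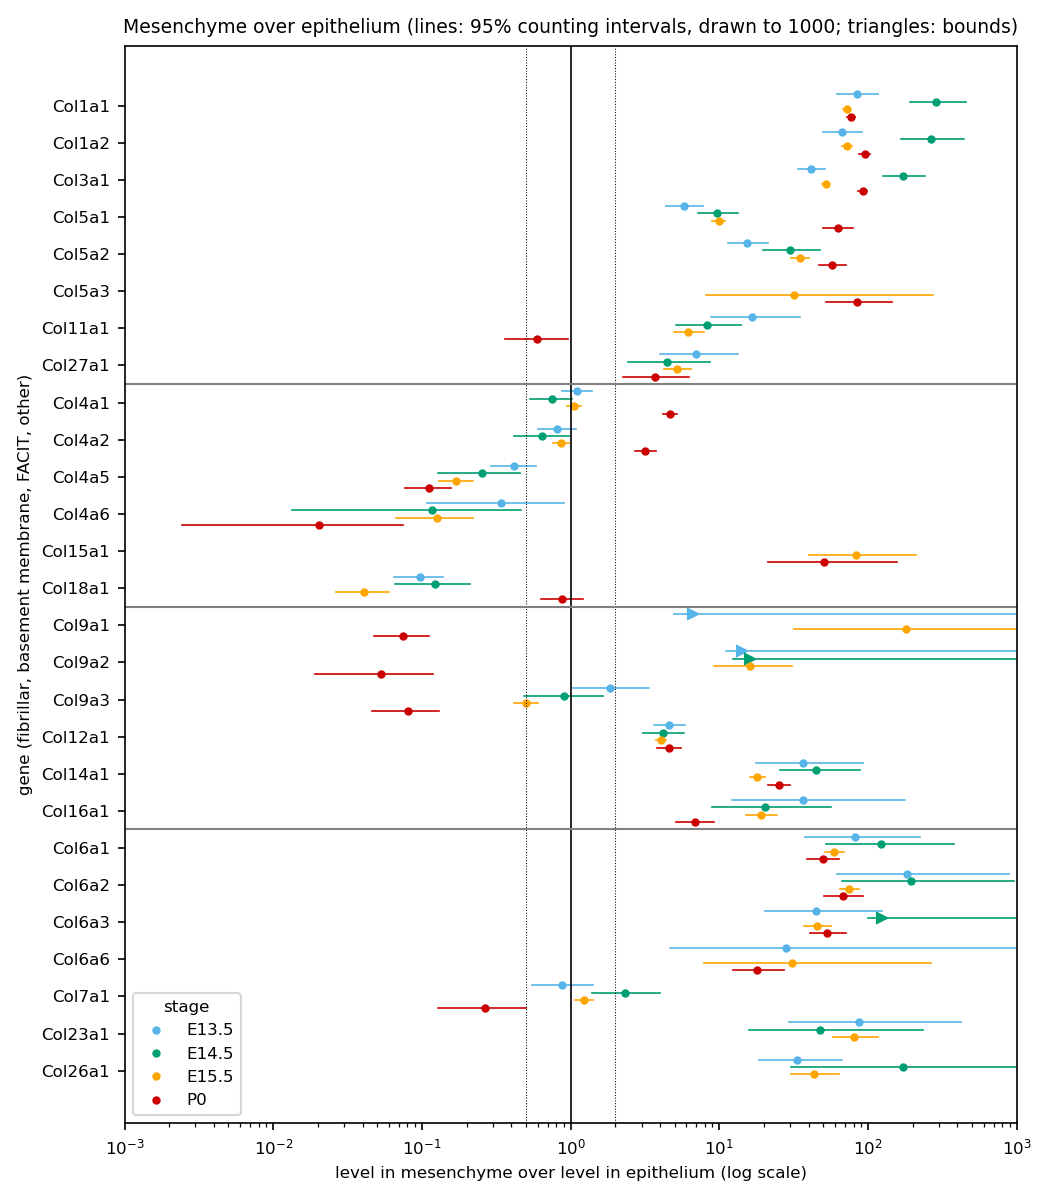
For each named collagen, with Col4a6, Col9a2 and Col7a1 added, and each stage, a point gives the level in mesenchyme over that in epithelium on a log axis, with its 95% counting interval, and dotted lines mark 2-fold either way. The fibrillar and type VI genes drawn lie to the right except Col11a1 at P0, which is at 0.595, while Col4a5 and Col4a6 lie to the left at every stage, and Col9a1 moves from 181 at E15.5 to 0.0744 at P0.

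Between stages in the mesenchyme, 11 of 32 collagens were at least 2-fold higher at E15.5 than at E13.5 (7.83% of all genes compared) and 8 were lower (14.1%). At P0 against E13.5, 16 of 30 were higher (13.9%) and 10 lower (36.2%). At P0 against E15.5, 13 of 30 were higher (14.2%) and 8 lower (28.7%). These 3 comparisons share libraries. The E15.5 file also names another version of the counting software and lists fewer genes. The part of this in comparisons of E15.5 with other stages, here and below, was not tested. In the epithelium, 10 of 27 were higher at E15.5 than at E13.5 (1761 of all 12154 genes compared) and 2 lower (15.0%), 16 of 24 were higher at P0 than at E13.5 (17.4%) and 2 lower (20.4%), and 16 of 30 were higher at P0 than at E15.5 (15.2%) and 7 lower (18.3%). The epithelial counts include genes at or below the highest check marker. Without mixed cells 7 were higher at E15.5 than at E13.5, with no share of all genes given at that setting. Skin cells were not set apart from mammary epithelium at any stage, and their part in these counts was not tested. The median log2 ratio of P0 over E13.5 in mesenchyme was 1.25 for the collagens and -0.60 for all genes, and by class it was 3.03 for fibrillar, 2.76 for basement membrane, 0.28 for FACIT and -1.69 for the other collagens.

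Type I collagen, a heterotrimer of Col1a1 and Col1a2, is the main fibril of connective tissue. Col1a1 levels in order of stage, as in every list of levels from here on, were 1679, 5187, 6889 and 26903 CPM in the mesenchyme and 19.9, 18.1, 96.0 and 349.6 CPM in the epithelium. Those of Col1a2 were 1446, 3727, 3856 and 18599 CPM in the mesenchyme and 21.8, 14.1, 53.3 and 196 CPM in the epithelium. Both were high in every mesenchymal library and highest at P0, where Col1a1 was 16.0-fold (15.52 to 16.6) and Col1a2 12.9-fold (12.4 to 13.3) its E13.5 level. Col3a1, which makes the homotrimer of type III in extensible tissues, was at 1805, 5291, 4488 and 31664 CPM in the mesenchyme and 43.5, 30.6, 86.3 and 344 CPM in the epithelium. At P0 it was the collagen with the most UMIs, 7.05-fold (6.96 to 7.15) its E15.5 level. The mesenchyme exceeded the epithelium 71.8-fold (68.1 to 75.8) for Col1a1, 72.3-fold (67.3 to 77.8) for Col1a2 and 52.0-fold (49.2 to 55.1) for Col3a1 at E15.5. The corresponding values at P0 were 76.9-fold (72.1 to 82.1), 95.1-fold (87.3 to 104) and 92.0-fold (86.3 to 98.3). Without mixed cells the ratios were 254 (229.7 to 281), 229 (202 to 262) and 106 (97.4 to 115) at E15.5. At P0 they were then 169 (154 to 187), 213 (187 to 243) and 177 (162 to 194).

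**Figure D4:**
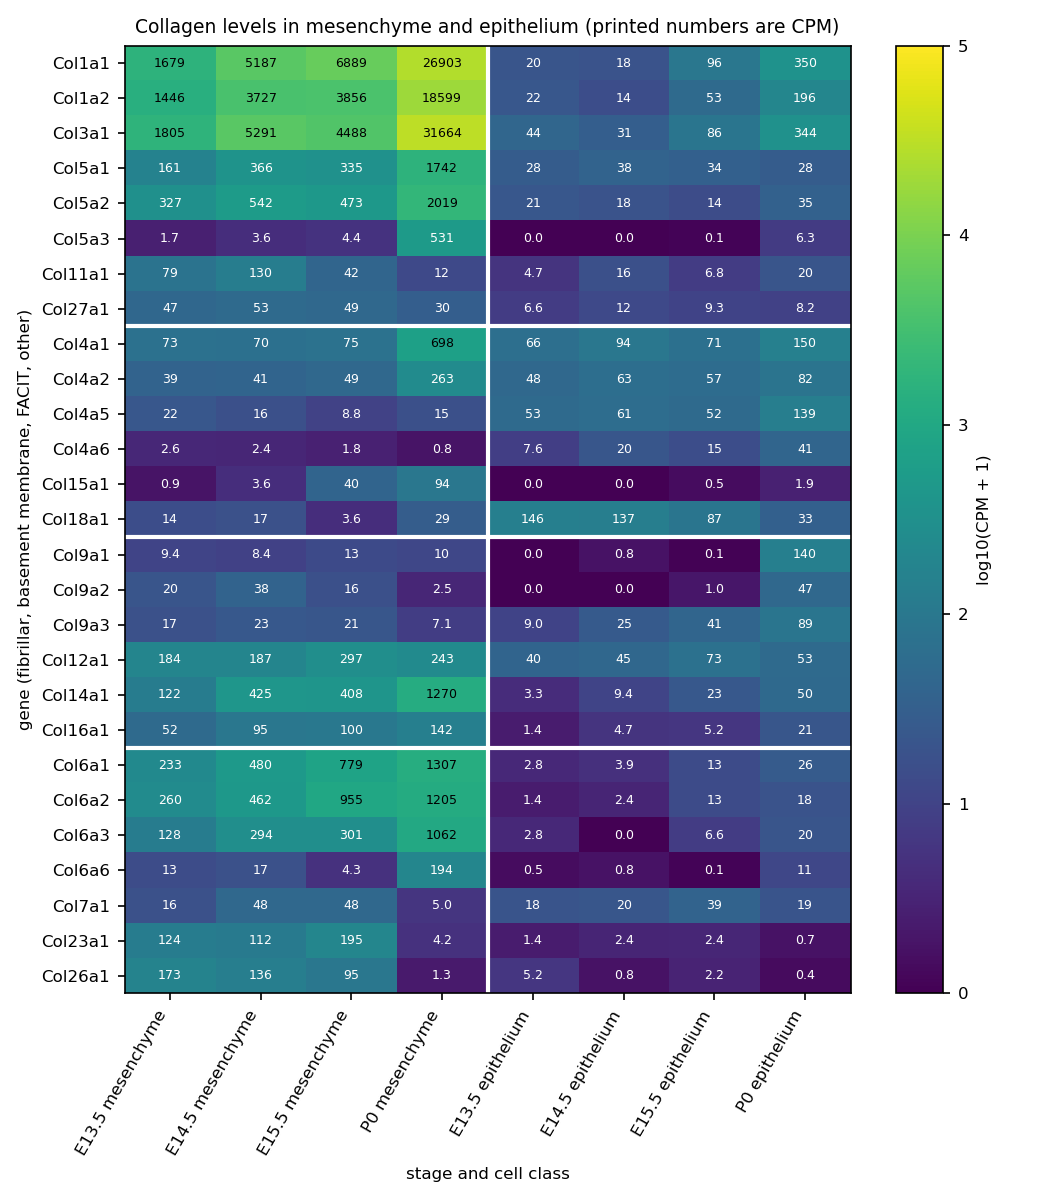
The color gives log10 of CPM plus 1 and the printed number the CPM of the 24 named collagens, with Col4a6, Col9a2 and Col7a1 added, in the 8 groups of stage and class, and white lines part the classes. The 3 top rows, Col1a1, Col1a2 and Col3a1, hold the highest mesenchymal levels, up to 31664 CPM, and Col23a1 and Col26a1 in the last rows are at 4.18 and 1.25 CPM in the P0 mesenchyme.

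Type V collagen sits inside type I fibrils and sets their width. Col5a1 was at 161, 366, 335 and 1742 CPM in the mesenchyme and 27.9, 37.7, 33.8 and 27.8 CPM in the epithelium. Col5a2 was at 327, 542, 473 and 2019 CPM in the mesenchyme and 21.3, 18.1, 13.6 and 35.3 CPM in the epithelium. Both were 10.8-fold (9.72 to 12.0) and 6.17-fold (5.72 to 6.67) their E13.5 mesenchymal level at P0, respectively, and the same ratios in epithelium were 0.997 (0.699 to 1.43) and 1.66 (1.15 to 2.42). Without mixed cells the epithelial ratios were 0.451 (0.280 to 0.716) and 0.736 (0.471 to 1.15), so that the direction for Col5a2 turned. For Col5a1 the mesenchyme over epithelium ratio was 5.78 (4.38 to 7.74) at E13.5 and 62.6 (49.8 to 79.7) at P0, or 150.5 (106 to 222) at P0 without mixed cells. Col5a3, the third type V chain, was nearly undetected before birth, at 1.71, 3.58, 4.40 and 531 CPM in the mesenchyme and 0, 0, 0.138 and 6.31 CPM in the epithelium. Its P0 mesenchymal level was 311-fold (121 to 1142) that at E13.5, resting on 4 UMIs at E13.5 and 1270 at P0 (0 and 678 with thinned cells), and 120.5-fold (84.4 to 178) that at E15.5. At least 1 Col5a3 UMI was found in 91.9% of mesenchymal cells at P0 and in 4.33% at E15.5. After thinning each cell to 5000 UMIs the shares were 83.5% and 1.08%, against 3.36% of unthinned epithelial cells at P0.

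Col11a1, a fibril chain best known from cartilage, took the opposite course in the mesenchyme. Its levels were 78.5, 130.1, 42.3 and 11.7 CPM in the mesenchyme and 4.73, 15.7, 6.82 and 19.7 CPM in the epithelium. The P0 mesenchymal level was 6.71-fold (4.50 to 10.4) lower than that of E13.5, and in the epithelium at P0 it was 4.16-fold (2.09 to 9.16) the E13.5 level. Col27a1, a fibrillar chain of cartilage and other connective tissue, stayed within 2-fold between stages in each class, at 46.5, 52.5, 48.6 and 30.1 CPM in the mesenchyme and 6.63, 11.8, 9.30 and 8.17 CPM in the epithelium. It was higher in mesenchyme at each stage, between 3.68-fold at P0 and 7.02-fold at E13.5. With thinned cells the epithelium held 1 Col27a1 UMI at E13.5 and its E15.5 level was 3.79 (0.606 to 157) times that. The remaining fibrillar genes Col2a1, Col11a2 and Col24a1 held 152, 74 and 143 UMIs in all 8 groups together. Col24a1 had 60, 21, 53 and 1 mesenchymal UMIs, and Col2a1, the main chain of cartilage collagen, had 84 UMIs in the E15.5 epithelium against 1 in the mesenchyme.

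Col4a1 and Col4a2 form the type IV trimer found in all basement membranes, and before birth they were at like levels on both sides. Col4a1 was at 72.6, 70.4, 74.7 and 698 CPM in the mesenchyme and 65.8, 94.2, 70.6 and 150.0 CPM in the epithelium. Col4a2 was at 38.8, 40.6, 48.9 and 263 CPM in the mesenchyme and 47.8, 62.8, 56.6 and 82.4 CPM in the epithelium. At E15.5 the mesenchyme over epithelium ratio was 1.06 (0.951 to 1.18) for Col4a1 and 0.864 (0.760 to 0.981) for Col4a2, and at P0 it was 4.65 (4.17 to 5.20) and 3.19 (2.73 to 3.73). The P0 ratios hold for the epithelial class as a whole, in which 20 of 238 cells formed a basal-like cluster. In that cluster, without its mixed cell, Col4a1 was at 1224 CPM and Col4a2 at 793 CPM, above the levels of the mesenchymal class as a whole. The Eln fibroblast-like cluster of the P0 mesenchyme, described below with its mixed cells kept, had a Col4a1 level inside the basal-like interval of 1078 to 1383 CPM. No order between these 2 clusters is drawn. The mesenchymal level at P0 was 9.33-fold (8.46 to 10.3) that at E15.5 for Col4a1 and 5.38-fold (4.71 to 6.15) for Col4a2. In the epithelium the same step was 2.12-fold (1.89 to 2.39) and 1.46-fold (1.25 to 1.69). Endothelium and pericytes also make these chains. In the P0 mesenchyme 2 of 4 endothelial markers were detected, summing to 35.9 CPM, with Cdh5 and Emcn at 0, and 4 of 4 pericyte markers summed to 59.7 CPM against 25.3 CPM at E15.5, and their part in the difference was not tested. Col4a1 was found in 75.0% of P0 mesenchymal cells (68.8% after thinning), against 57.8% (24.5%) at E15.5.

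Col4a5 and Col4a6, whose chains form a separate network in epithelial basement membranes, were the epithelial pair. Col4a5 was at 21.8, 15.51, 8.81 and 15.46 CPM in the mesenchyme and 52.5, 61.3, 51.7 and 139 CPM in the epithelium. It was 2.41-fold (1.72 to 3.43) higher in epithelium at E13.5 and 8.98-fold (6.40 to 12.96) higher at P0. Col4a6, below the level set for naming and chosen after its values were seen, was at 2.56, 2.39, 1.85 and 0.835 CPM in the mesenchyme and 7.57, 20.4, 14.54 and 41.2 CPM in the epithelium. Its mesenchymal levels rest on 6, 2, 13 and 2 UMIs, and with thinned cells both sides held 3 at E13.5. The epithelium exceeded the mesenchyme 2.96-fold (1.10 to 9.23) at E13.5, 7.87-fold (4.50 to 15.0) at E15.5 and 49.3-fold (13.3 to 412) at P0. In the epithelium Col4a5 was 2.64-fold (2.13 to 3.30) and Col4a6 5.44-fold (3.21 to 9.85) as high at P0 as at E13.5. The 5 highest cells held 8.82% of the epithelial Col4a5 UMIs at P0, so the signal was spread over many cells. The other 2 basement membrane chains of this family, Col4a3 and Col4a4, head to head and 71 bases apart, held 3 and 51 UMIs in all.

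Col18a1 and Col15a1 encode the basement membrane collagens that release endostatin and a related fragment, and they stood on opposite sides. Col18a1 was at 14.1, 16.7, 3.55 and 28.8 CPM in the mesenchyme and 146, 137, 87.2 and 33.0 CPM in the epithelium. The epithelium exceeded the mesenchyme 10.3-fold (7.21 to 15.3) at E13.5, 8.18-fold (4.75 to 15.3) at E14.5 and 24.6-fold (16.6 to 38.1) at E15.5, and at P0 the mesenchymal level was 0.873-fold (0.628 to 1.21) the epithelial one. Both sides differed between stages, the epithelium being 4.41-fold (3.48 to 5.65) lower at P0 than at E13.5 and the mesenchyme 8.12-fold (5.07 to 13.4) as high at P0 as at E15.5. Col15a1 was at 0.854, 3.58, 40.4 and 93.6 CPM in the mesenchyme and 0, 0, 0.482 and 1.86 CPM in the epithelium. It was all but undetected at E13.5, with 2 UMIs in mesenchyme, and present at E15.5 with 284, a ratio of 47.3 (12.96 to 392), or 0 and 59 UMIs with thinned cells. Its P0 level was 2.32-fold (1.94 to 2.77) that of E15.5. A Col15a1 UMI was found in 0.763% of mesenchymal cells at E13.5, 42.6% at E15.5 (14.8% after thinning) and 24.2% (20.4%) at P0, against 0.840% of P0 epithelial cells.

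Type IX collagen is a FACIT of different chains that coats cartilage fibrils, and at P0 each of its genes was higher in epithelium. Col9a1 was at 9.39, 8.35, 12.5 and 10.4 CPM in the mesenchyme and 0, 0.785, 0.0689 and 140.3 CPM in the epithelium. Before birth it was a low mesenchymal gene, at least 6.61-fold higher (exact lower limit 4.94) in mesenchyme at E13.5 and 181-fold (31.7 to 7249) at E15.5, where the epithelium held 1 UMI in 538 cells. Without mixed cells the E13.5 mesenchyme held 12 UMIs against 0, and with cells thinned to 5000 UMIs 2, under the 20 needed for a comparison. Thinned, the E15.5 mesenchyme held 17 UMIs against 0. At P0 the mesenchyme was at 0.835-fold (0.513 to 1.31) its E15.5 level and the epithelium held 378 UMIs, 13.4-fold (8.96 to 21.0) above the mesenchyme and 2037-fold (363 to 80651) its E15.5 level. Of epithelial cells, 42.4% had a Col9a1 UMI at P0 (32.4% after thinning) and 0.186% at E15.5, against 2.69% of mesenchymal cells at P0. Without mixed cells the epithelial level at P0 was 143 CPM (129 to 158). Col9a3 was at 16.6, 22.7, 20.7 and 7.10 CPM in the mesenchyme and 8.99, 25.1, 41.3 and 88.7 CPM in the epithelium. It was on both sides before birth, with a mesenchyme over epithelium ratio of 1.85 (1.04 to 3.39) at E13.5 and 0.503 (0.417 to 0.603) at E15.5, and 12.5-fold (7.64 to 21.8) higher in epithelium at P0. Thinned, its ratio at E13.5 was 0.779 (0.320 to 1.89), so that the direction turned there. Col9a2, chosen after its values were seen, was at 20.1, 38.2, 15.6 and 2.51 CPM in the mesenchyme and 0, 0, 0.964 and 47.1 CPM in the epithelium. The gene was at least 16.2-fold higher (exact lower limit 12.4) in mesenchyme at E14.5, 16.2-fold (9.26 to 30.6) at E15.5 and 18.8-fold (8.41 to 52.2) higher in epithelium at P0. Of the 4 cartilage markers Sox9, Acan, Matn1 and Cnmd, Matn1 was at 0 in every group. The list summed to 469 CPM in the epithelium at E15.5 and 529.7 CPM at P0. The sum was not split by gene, and the part of these markers in the differences was not tested.

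Col12a1 and Col14a1 are FACITs that bind type I fibrils in skin and tendon. Col12a1 was at 184, 187, 297 and 243 CPM in the mesenchyme and 40.2, 44.8, 72.9 and 53.1 CPM in the epithelium. It was among the steadiest, with a mesenchyme over epithelium ratio between 4.07 and 4.58 at the 4 stages and no 2-fold difference between the stages compared. Its epithelial level at P0 was 21.8% of the mesenchymal one, above the highest check marker. Col14a1 was at 122, 425, 408 and 1269.5 CPM in the mesenchyme and 3.31, 9.42, 22.6 and 50.5 CPM in the epithelium. The P0 mesenchyme was at 10.4-fold (9.21 to 11.8) its E13.5 level. Col16a1, a FACIT of several tissues that binds cell integrins, was at 51.7, 95.5, 100.2 and 142 CPM in the mesenchyme and 1.42, 4.71, 5.24 and 20.8 CPM in the epithelium. Its mesenchyme over epithelium ratio was 19.1 (15.1 to 24.6) at E15.5 and 6.83 (5.14 to 9.24) at P0. The mesenchymal level of Col16a1 was 2.75-fold (2.23 to 3.41) as high at P0 as at E13.5. The FACITs Col19a1, Col20a1 and Col22a1 held 35, 35 and 10 UMIs in all.

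Type VI collagen forms beaded filaments around cells, and its main chains were mesenchymal throughout. Col6a1 was at 233, 479.7, 779 and 1307 CPM in the mesenchyme and 2.84, 3.93, 13.2 and 26.4 CPM in the epithelium. Col6a2 was at 260.0, 462, 955 and 1205 CPM in the mesenchyme and 1.42, 2.36, 12.8 and 17.8 CPM in the epithelium. Col6a3 was at 128, 294, 301 and 1062 CPM in the mesenchyme and 2.84, 0, 6.61 and 20.04 CPM in the epithelium. The chains differed in the step at which they were higher. The E15.5 level was 3.34-fold (3.06 to 3.66) that of E13.5 for Col6a1, 3.67-fold (3.38 to 3.998) for Col6a2 and 2.36-fold (2.09 to 2.67) for Col6a3. The P0 level was 1.68-fold (1.60 to 1.75), 1.26-fold (1.21 to 1.32) and 3.53-fold (3.33 to 3.74) that of E15.5. Col6a6, a long chain that can take the place of Col6a3, was at 13.2, 16.7, 4.26 and 194 CPM in the mesenchyme and 0.473, 0.785, 0.138 and 10.8 CPM in the epithelium. Its P0 mesenchymal level was 45.5-fold (31.4 to 68.2) that of E15.5, on 30 and 464 UMIs. Its neighbors Col6a5 and Col6a4 held 3 and 12 UMIs in all.

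Col23a1 and Col26a1 were lower in the mesenchyme at P0 than at any earlier stage. Col23a1, a transmembrane collagen, was at 124, 112, 195 and 4.18 CPM in the mesenchyme and 1.42, 2.36, 2.41 and 0.742 CPM in the epithelium. Col26a1, a secreted collagen first found in testis and ovary, was at 173, 136, 95.5 and 1.25 CPM in the mesenchyme and 5.21, 0.785, 2.20 and 0.371 CPM in the epithelium. In the mesenchyme Col23a1 was 46.7-fold (25.3 to 97.7) and Col26a1 76.2-fold (26.0 to 370.4) lower at P0 than at E15.5, resting on 10 and 3 UMIs at P0. Col23a1 was found in 86.3% of mesenchymal cells at E15.5 (56.7% after thinning) and 2.31% at P0 (0.385%). For Col26a1 the shares were 83.4% (36.5%) and 1.15% (1.15%). Col7a1, the anchoring fibril that ties the epidermal basement membrane to the dermis, was chosen after its values were seen and was at 16.2, 47.7, 47.7 and 5.01 CPM in the mesenchyme and 18.5, 20.4, 38.7 and 18.9 CPM in the epithelium. Its mesenchyme over epithelium ratio was 2.34 (1.39 to 3.99) at E14.5, 1.23 (1.07 to 1.41) at E15.5 and 0.265 (0.129 to 0.503) at P0. The other members of this class held between 0 UMIs (Col10a1) and 280 (Col25a1) in all, and Col25a1, a neuronal transmembrane collagen, had 70 UMIs in the E13.5 mesenchyme and 145 in the E15.5 epithelium.

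Chains of 1 trimer kept different count ratios across stages. The E15.5 file names another version of the counting software and lists fewer genes, and the part of this in the ratios was not tested. In the mesenchyme the UMIs of Col1a1 over Col1a2 stood at 1.16 (1.11 to 1.22), 1.39 (1.33 to 1.46), 1.79 (1.76 to 1.81) and 1.45 (1.43 to 1.46). Type I holds more alpha-1 than alpha-2 chains. Col1a1 over Col3a1 was 0.930 (0.890 to 0.972), 0.980 (0.940 to 1.02), 1.53 (1.51 to 1.56) and 0.850 (0.841 to 0.859), so that Col3a1 exceeded Col1a1 at E13.5 and P0 and not at E15.5. Col4a1 over Col4a2 was 1.53 (1.33 to 1.76) at E15.5 and 2.66 (2.42 to 2.91) at P0. Col6a3 over Col6a2 was 0.315 (0.300 to 0.331) and 0.881 (0.835 to 0.930). Over mesenchymal cells thinned to 5000 UMIs, Spearman's rho between Col1a1 and Col1a2 was 0.70, 0.82, 0.86 and 0.94. At P0 it was 0.71 between Col4a1 and Col4a2 and -0.55 between Col1a1 and Col4a1 over 260 cells. These cells share 1 library, the counts grow with a gene's level, and the values are a description.

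The negative relation of Col1a1 and Col4a1 at P0 was also visible between groups of cells. Each library's mesenchyme was clustered without the collagen genes and clusters were named from marker lists. At P0, cluster 0 of 84 cells was Pi16 fibroblast-like, with collagens at 12.5% (12.5 to 12.6) of UMIs. Clusters 1 and 2, both adipogenic fibroblast-like with 66 and 61 cells, had 7.64% (7.57 to 7.71) and 5.66% (5.60 to 5.73). Cluster 3 of 49 cells was Eln fibroblast-like, led by Cilp and Thbs4, with 6.24% (6.17 to 6.31). Type I and III genes were highest in the Pi16-like cells. Col1a1 was at 40494, 23235, 15270.1 and 17071 CPM in clusters 0 to 3, and Col3a1 at 45865, 27708, 21177 and 19369 CPM. Col4a1 and Col15a1 were lowest in the Pi16-like cells. Col4a1 was at 126, 884, 1021 and 1286 CPM, 7.03-fold (5.72 to 8.70) higher in cluster 1 than in cluster 0. Col15a1 was at 0, 146, 185 and 111 CPM, with no UMI in the Pi16-like cells. Col12a1 stood out in the Eln-like cells, at 104, 166, 215 and 685 CPM, and so did Col6a1 at 1146, 1245, 1158 and 1932 CPM. The cells of the clusters come from 1 library and no test was made between them.

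At E15.5, cluster 1, 74 dermal mesenchyme-like cells, had the most collagen, 4.01% (3.98 to 4.04) of UMIs. Cluster 0, 79 sub-epithelial mesenchyme-like cells, had 1.11% (1.10 to 1.12), and all 6 of its markers were detected but none was among its 10 leading genes. The 69 proliferative-like cells of cluster 2 had 1.24% (1.23 to 1.26). Cluster 3, 55 cells led by Gal and Tac1 and not named, had 2.14% (2.12 to 2.17). Dermal-like over sub-epithelial-like cells gave 3.61-fold (3.56 to 3.67) for all collagens, 4.70-fold (4.57 to 4.84) for Col1a1, 5.29-fold (4.65 to 6.04) for Col12a1 and 31.9-fold (12.1 to 119) for Col9a2. Type VI was near even, with 1.09-fold (1.01 to 1.17) for Col6a1 and 0.942-fold (0.880 to 1.01) for Col6a2. The type IV chains were the reverse, with Col4a1 2.90-fold (2.19 to 3.90) and Col4a2 3.01-fold (2.08 to 4.45) higher in the sub-epithelial-like cells. At E13.5 the 36 sub-epithelial mesenchyme-like cells had 0.559% (0.540 to 0.579), the 24 proliferative-like cells 0.605% (0.585 to 0.626) and the 71 cells of the unnamed cluster 0, led by Ebf2 and Itm2a, 0.832% (0.816 to 0.849). There Col4a1 was at 107 CPM in the sub-epithelial-like and 52.7 CPM in the unnamed cells, and Col23a1 at 238 and 62.4 CPM.

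**Figure D5:**
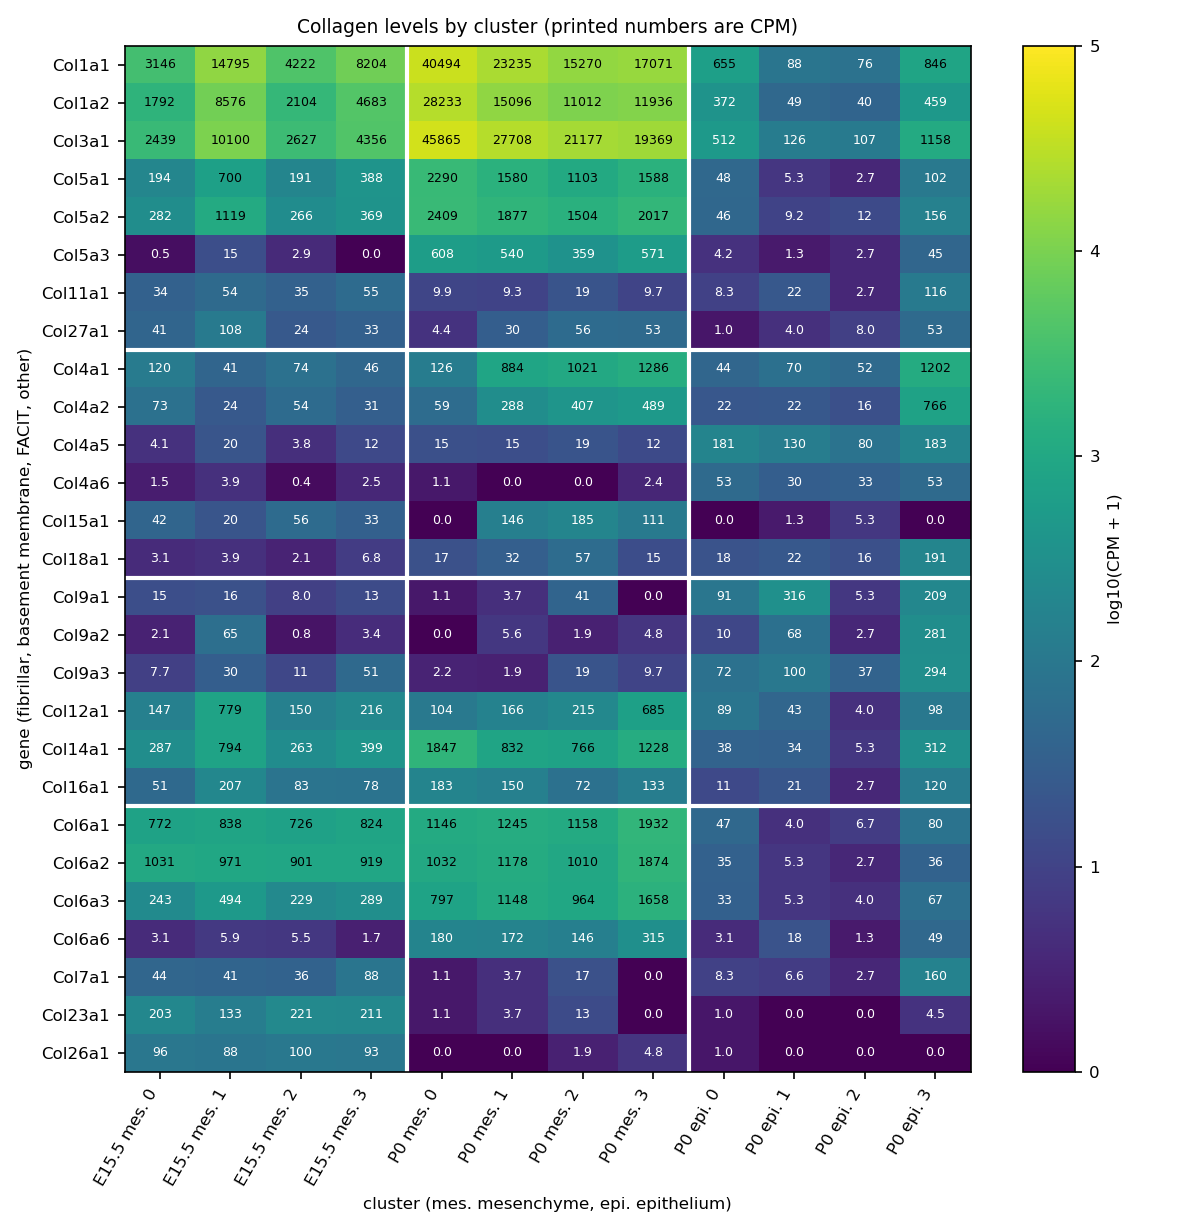
The color gives log10 of CPM plus 1 and the printed number the CPM of each named collagen in the mesenchymal clusters of E15.5 and P0 and the epithelial clusters of P0. Col4a1 is at 126 CPM in P0 mesenchymal cluster 0 and between 884 and 1286 CPM in the other 3, and P0 epithelial cluster 3 has the highest epithelial level of Col4a1, 1202 CPM.

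In the P0 epithelium, Col4a1, Col4a2, Col18a1, Col9a2, Col9a3 and Col7a1 were highest in cluster 3, 20 basal-like cells led by Acta2 and Il17b. Col4a1 was at 1202 CPM (1063 to 1355) there and at 43.8, 69.8 and 51.9 CPM in clusters 0 to 2. Clusters 0 and 1, 101 and 70 cells, were luminal progenitor-like and cluster 2, 47 cells, proliferative-like with Cited1, a mature luminal marker, among its leading genes. Col4a2 was at 766 CPM (656 to 889) in the basal-like cells. Col18a1 was at 191, Col9a2 at 281, Col9a3 at 294 and Col7a1 at 160.3 CPM in them. Col4a1, Col4a2 and Col9a3 were found in all 20 of these cells, and basal-like cells exceeded cluster 1 17.2-fold (12.8 to 23.6) for Col4a1 and 4.10-fold (2.79 to 6.03) for Col9a2. Col1a1 in this cluster, 846 CPM, lay in few cells, 5 of which held 97.4% of its UMIs. Without the 1 mixed cell, Col1a1 was at 71.7 CPM (40.1 to 118) and Col4a1 at 1224 CPM (1078 to 1383). Col14a1, at 287 CPM (219 to 369) without that cell, was found in 85.0% of the cells of this cluster.

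Col9a1 had another place. It was highest in luminal progenitor-like cluster 1, led by Apod and Kctd12, at 316 CPM (277 to 359), and at 209 CPM in the basal-like cells, 90.7 CPM in cluster 0 and 5.33 CPM in cluster 2. Cluster 1 held 3.48-fold (2.72 to 4.51) the level of cluster 0 although both took the same name. Col4a5 was spread more evenly, at 181, 130.4, 79.9 and 183 CPM in clusters 0 to 3.

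At E15.5 the epithelial clusters also differed. Cluster 2, 90 basal-like cells led by Ndnf and Tbx3, had Col4a1 at 98.3 CPM (85.5 to 112) and Col4a2 at 97.4 CPM (84.7 to 111). Cluster 1, 111 luminal-like cells led by Ly6d, had 32.3 CPM (26.4 to 39.1) and 16.3 CPM (12.2 to 21.3). The largest cluster, cluster 0 of 210 cells and not named, had 92.1 CPM (83.9 to 101) and 82.9 CPM (75.1 to 91.3). Cluster 3, 65 proliferative-like cells, had 73.7 CPM (63.3 to 85.4) and 45.5 CPM (37.4 to 54.9). Levels near those of the basal-like cells were thus also found in cluster 0. The ratio of cluster 2 over cluster 1 was 3.04 (2.40 to 3.88) for Col4a1, 5.97 (4.40 to 8.23) for Col4a2 and 1.03 (0.802 to 1.32) for Col4a5. Cluster 4, 46 cells, also met the limits for the basal-like name, with 5 of 6 markers detected. Its leading genes included Has2, Dcn, Il24, Stfa1, Csta1 and Col17a1. It is described by number since Dcn is a mesenchymal marker of the rule. Its further mesenchymal markers summed to 96.1 CPM, below clusters 0 to 3 and above cluster 5. Cluster 4 had Col4a5 at 96.1 CPM (79.1 to 116) and Col7a1 at 75.5 CPM (60.5 to 93.0). In this cluster, 37 cells had at least 90% epithelial marker UMIs. The Col1a1 level of 328 CPM in cluster 2 was 23.8 CPM (17.5 to 31.5) without 5 mixed cells. Cluster 5, 16 skin-like cells led by Krt1 and Sprr1b, had the lowest collagen share, 0.0131% (0.0101 to 0.0168) of UMIs.

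The genes that modify, export, crosslink and bind collagen were taken from a list of 42. Of those with enough UMIs, 22 of 33, 24 of 29, 30 of 38 and 29 of 35 were at least 2-fold higher in mesenchyme in order of stage, and 2 were higher in epithelium at each stage, to be read against the same shares of all genes given for the collagens. At E15.5 all 14 hydroxylation and glycosylation genes compared and all 5 crosslinking genes were higher in mesenchyme, and of 7 receptors 3 were higher in mesenchyme and 2 in epithelium. The 3 largest mesenchymal ratios at E15.5 were those of Lox, the oxidase that starts crosslinks, Pcolce, an enhancer of propeptide cleavage, and Ddr2, a receptor kinase for fibrillar collagen. Lox was at 156 and 1.52 CPM in mesenchyme and epithelium, a ratio of 103 (67.8 to 165). Pcolce was at 245 and 3.24 CPM with a ratio of 75.7 (56.7 to 103). Ddr2 was at 174 and 2.34 CPM with a ratio of 74.3 (52.9 to 108). The receptor side of the epithelium was different. Itga2, the alpha chain of a collagen-binding integrin, was at 0.710 and 15.4 CPM, 21.7-fold (9.17 to 67.6) higher in epithelium, and the receptor kinase Ddr1 at 11.9 and 117 CPM, 9.82-fold (7.89 to 12.4) higher. Itgb1, the beta chain of these integrins, was at 423 and 503 CPM, a mesenchyme over epithelium ratio of 0.841 (0.805 to 0.878).

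At P0 the largest mesenchymal ratios were those of Lox at 823 and 10.02 CPM with a ratio of 82.2 (56.3 to 125), P4ha3, a prolyl hydroxylase subunit, at 23.8 and 0.371 CPM with a ratio of 64.2 (11.1 to 2578), and Ddr2 at 179 and 3.71 CPM with a ratio of 48.3 (26.0 to 101). Lox thus led at both stages. On the epithelial side were Ddr1 at 12.1 and 46.4 CPM, 3.83-fold (2.54 to 5.95) higher in epithelium, and P3h2, which hydroxylates type IV collagen, at 5.85 and 14.48 CPM, 2.48-fold (1.31 to 4.94) higher. Itga2 came next at 30.1 and 38.6 CPM, a mesenchyme over epithelium ratio of 0.779 (0.569 to 1.06). That is within 2-fold, its interval spans an even ratio, and it was not called on either side.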

How the data were processed

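For each stage the authors deposited a matrix of raw UMI counts per gene and cell barcode, made from 10x 3′ v3.1 libraries with Cell Ranger against mm10. Per the labels, version 6.0.0 was used throughout, while the file header of E15.5 names 3.1.0. No normalized values were used, and cell types annotated by the authors were not used here. Ensembl identifiers matched the genes across libraries.

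The collagens, their classes and all gene lists were chosen with earlier results of these data known. The limits on cells were 5000 UMIs or more and 6% mitochondrial UMIs or less. UMIs were summed per class and divided by the class total. Intervals are exact Poisson for levels, exact conditional binomial for ratios and exact binomial (Clopper-Pearson) for shares of cells, at 95%. A floor of 3 counts stood in for a group at 0. Total UMIs per class ran from 838030 to 14515470. Named were collagens with at least 50 CPM in 1 of the 8 groups, and the 3 largest ratios each way among the biosynthesis and receptor genes at E15.5 and P0. Clustering within a class used SCTransform, 2000 variable genes without the collagens, 15 components and resolution 0.8 (mesenchyme at E13.5, E15.5 and P0, epithelium at E15.5 and P0). A name needed 3 markers detected in at least 0.25 of the cells and a mean log2 fold over other cells from 0.25 up, with 10 CPM added, and no other list could hold more of the 10 leading genes. These limits were chosen with the clusters in view. Statistics scripts were tested on simulated counts.

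Alternatives were a UMI minimum of 3000, a mitochondrial maximum of 10%, thinning to 5000 UMIs, own markers at 90% or more, means over cells, a denominator without collagens, 50 UMIs or 1 UMI to compare a gene, a 3-fold call, resolution 0.4 and log-normalization. Versions were R 4.3.3, Seurat 5.3.0, sctransform 0.4.2, Matrix 1.6.5, Python 3.11.15, numpy 2.4.6, scipy 1.17.1, pandas 2.3.3 and matplotlib 3.10.9.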

Additional observations from a re-analysis of the deposited data

Results flagged for a closer look

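Col9a1, Col9a2 and Col7a1 stood on opposite sides of the tissue at different stages. The mesenchyme over epithelium ratio of Col9a1 was 181 (31.7 to 7249) at E15.5 and 0.0744 (0.0476 to 0.112) at P0. For Col9a2 the mesenchyme was at least 16.2-fold higher (exact lower limit 12.4) at E14.5, and at P0 the ratio was 0.0532 (0.0192 to 0.119). For Col7a1 it was 2.34 (1.39 to 3.99) at E14.5 and 0.265 (0.129 to 0.503) at P0. The epithelial level of Col7a1 was 114% of the mesenchymal one at E13.5 and 81.1% at E15.5. Before birth Col7a1 thus passed 2-fold at E14.5 only, the stage with the fewest cells. The difference between stages was not tested, since each stage has 1 library.

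Barcodes that failed the limits on depth or mitochondrial share entered no comparison, and collagens were above the limit of a count of 0 in them. In order of stage they took 0.668%, 0.306%, 0.497% and 2.51% of those UMIs. In all kept cells together the shares were 0.399%, 0.748%, 0.695% and 4.22%. The share was lower in the left-out barcodes at 3 stages and higher at E13.5.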

How the results depend on the processing

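The total collagen ratio of mesenchyme over epithelium kept its direction at all stages. At E13.5 it moved to 11.3 with thinned cells, 13.54 without mixed cells and 11.4 as a mean over cells. At E14.5 it was 29.1 with a mitochondrial maximum of 10%. At E15.5 it was 24.9 with that maximum, 27.3 thinned, 31.0 without mixed cells, 28.2 as a mean and 24.2 without collagens in the denominator. At P0 the same 5 alternatives gave 43.3, 41.4, 64.7, 40.6 and 49.7. Counts of collagens moved mainly where few genes were called. Shares of all genes are given for the main setting only, so the counts below have no background beside them. With 1 UMI enough to compare a gene, the 3 UMIs standing in for a group at 0 can exceed the other group's level. A call can then point the wrong way. At E13.5, for example, Col20a1 held 1 UMI in mesenchyme and 0 in epithelium and was counted as higher in epithelium. The calls at this setting, not read as directions, were 7 higher in epithelium than in mesenchyme at E13.5 and 5 at E14.5. In epithelium, 12 were called lower at E15.5 and 8 at P0 than at E13.5, and 25 higher at P0 than at E15.5. With 50 UMIs required, these last comparisons gave 1 lower at E15.5 and 1 lower at P0 than at E13.5 in epithelium, and 3 lower at P0 than at E15.5. A 3-fold call gave 1 higher in epithelium at E13.5, 5 higher at E15.5 than at E13.5 in mesenchyme, 1 lower at E15.5 and 1 lower at P0 than at E13.5 in epithelium, and 8 higher at P0 than at E15.5 in epithelium. Thinning gave 2 lower at E15.5 than at E13.5 in mesenchyme and, in epithelium, 0 lower at E15.5 and 1 lower at P0 than at E13.5, and 3 lower at P0 than at E15.5. The cause was not tested, beyond the fewer or more genes compared. On the log2 scale, ratios that had passed 2-fold took the other sign in 4 cases. Thinned, Col5a3 E15.5 over E13.5 in mesenchyme was -0.34. That value is a lower bound with 0 UMIs at E13.5, so it does not show a change of direction. Col4a5 for the same comparison, also thinned, was 0.20. The other cases were both Col6a3 E15.5 over E13.5 in epithelium, at -0.038 without mixed cells and -0.098 as a mean over cells. At resolution 0.4 the total collagen ratio was 2.68 for dermal-like over sub-epithelial-like clusters at E15.5, 2.15 for Pi16-like over Eln-like and 1.92 for Pi16-like over adipogenic-like clusters at P0, and the last was 2.65 with log-normalization. Basal-like and luminal-like clusters of E15.5 were not compared under these alternatives. No paired analysis was possible because each stage has 1 library, and for the same reason no library could be left out. Low counts limit most genes outside the named ones, and E14.5 holds the fewest cells.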
